A study of Saccharomyces cerevisiae with 12 samples.

Results

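The vacuole is the lytic compartment of budding yeast, and this report follows the transcripts of 9 genes that encode its soluble and membrane-anchored proteases and the cytosolic inhibitors of those proteases. The members were chosen by gene name, as 6 proteases (PEP4, PRB1, PRC1, CPS1, LAP4 and APE3) and 3 inhibitors (PAI3, PBI2 and TFS1), out of 7109 gene identifiers in the count table. The table itself names 8 of them. The ninth, YJL172W, carries no name there and was identified as CPS1 through the locus tag in RefSeq. All 9 passed the filter on low counts, which left 6463 genes to test.

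Poly(A) RNA was sequenced in 12 libraries of Saccharomyces cerevisiae, in 4 groups of 3 that the labels number as Biorep. Both strains were of BY4741 background, a haploid laboratory strain with several auxotrophies, grown in the rich medium YPD to an optical density of about 0.5. The wild type and the ∆hel2 strain, which lacks a ubiquitin ligase that recognises collided ribosomes, were each sampled without treatment and after 90 min with methyl methanesulfonate (MMS) at 30 °C. MMS alkylates DNA and RNA. For untreated cultures the labels do not say whether they were kept for the same 90 min. The part of culture time in the MMS comparisons was not tested. The series title puts the integrated stress response and quality control of colliding ribosomes as its subject, and the labels give neither the dose of MMS nor how many clones of the deletion strain were used. Libraries are named WT_1 to WT_3, WT_MMS_1 to WT_MMS_3, hel2_1 to hel2_3 and hel2_MMS_1 to hel2_MMS_3. The labels do not say what separates the replicates, so the p-values measure the spread between these libraries.

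Vacuolar proteolysis works as a cascade. Proteinase A, the aspartyl protease encoded by PEP4, starts the maturation of the other zymogens, and proteinase B, the subtilisin-type serine protease encoded by PRB1, completes much of it. Carboxypeptidase Y (PRC1), carboxypeptidase S (CPS1), aminopeptidase I (LAP4) and aminopeptidase Y (APE3) then trim peptides to amino acids, a supply that matters during starvation and autophagy. Small inhibitors outside the vacuole bind single proteases of this set, namely the PAI3 product for proteinase A, the PBI2 product for proteinase B and the TFS1 product for carboxypeptidase Y.

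The libraries held between 36472686 and 53638964 counts each. HEL2 lay between 928 and 2431 counts in wild type libraries and between 19 and 39 in deletion libraries. LEU2, for leucine synthesis, lay between 2 and 28 counts in wild type and between 19374 and 28105 in deletion libraries, so the strains differ by more than HEL2 and the part of LEU2 in any strain difference was not tested. Of the other auxotrophy genes of this background, MET17 had 16 to 105 counts and HIS3 3334 to 18212. URA3 had 378 counts in WT_MMS_2 and 2 to 12 in the 11 other libraries. Without WT_MMS_2, 8 members still passed as higher with MMS in the wild type. The pheromone genes MFA1 and MFA2 of a cells had at least 14474 counts in each library, while of the alpha cell genes MF(ALPHA)1 had at most 98 and MF(ALPHA)2 had 187 to 589. WT_MMS_1 lay apart from its replicates. Over genes, its log2 distance from them had an SD of 0.411, against 0.148 to 0.285 in the 11 other libraries. Levels are given as CPM, in which counts are divided by the TMM-scaled library size, and changes as log2 fold changes with an approximate standard error (SE) from edgeR's quasi-likelihood test. Passing means an adjusted p under 0.05 by Benjamini-Hochberg over all genes tested.

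With MMS, 8 of the 9 members were higher in the wild type and 8 of the 9 in the deletion strain, and no member fell in either. Over all genes, 35.6% passed as higher and 34.2% as lower in the wild type, and 39.2% and 36.2% in the deletion strain. For all 9 members the treated and untreated libraries of a strain did not overlap, which held for 71.4% of all genes in the wild type and 81.4% in the deletion strain. Of the 6 proteases, all rose in the wild type, with a median log2 fold change of 1.78 where the median of all genes was 0.02. In the deletion strain 5 rose, with a median of 1.81 against 0.06 for all genes. Of the 3 inhibitors, 2 rose in the wild type and all 3 in the deletion strain. Together the 6 proteases took 0.323 to 0.338% of all counts in untreated wild type libraries and 0.909 to 1.06% with MMS, and in the deletion strain 0.374 to 0.396% and 1.42 to 1.49%. The 3 inhibitors took 0.00308 to 0.00321% of untreated and 0.115 to 0.158% of treated wild type counts. Their deletion strain shares were 0.00548 to 0.00624% and 0.238 to 0.261%. TFS1 gave most of the treated inhibitor counts, with 56945 in WT_MMS_1 beside 397 for PAI3 and 371 for PBI2. In hel2_MMS_1 the same genes had 109956, 1661 and 1915 counts. In bulk RNA, a change in each cell and a change in the share of cells with the transcript cannot be told apart.

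**Figure D1:**
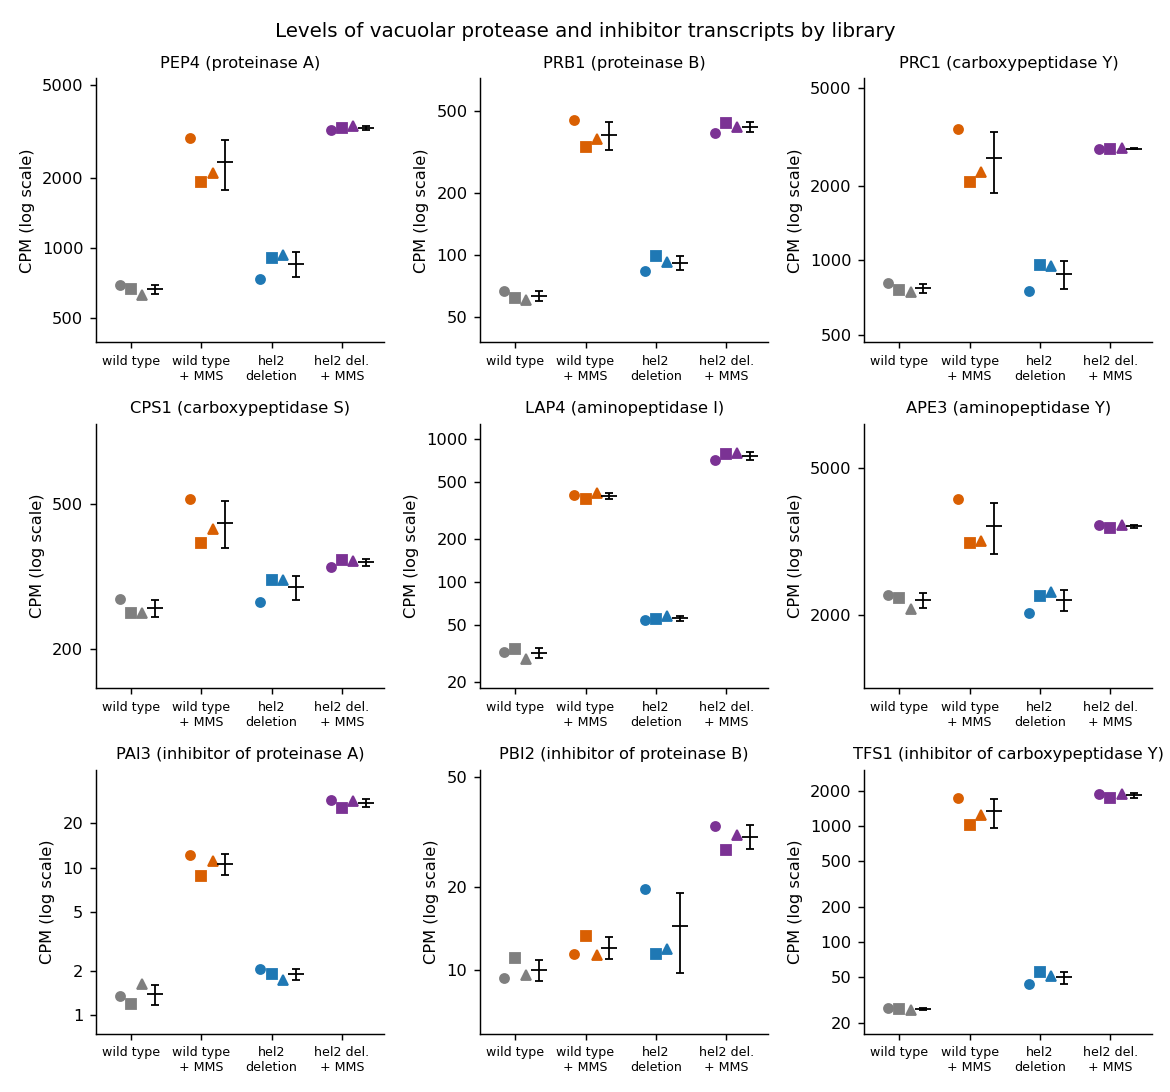
CPM on a log scale for each of the 9 genes in the 12 libraries, by group; circles, squares and triangles are replicates 1, 2 and 3, and the bars show mean and SD of the 3 libraries. Treated libraries stand above untreated ones of the same strain for all 9 genes, by the widest step for TFS1, from 25.9 to 27 CPM up to 1022 to 1754 CPM in the wild type.

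The endoproteases head the cascade. PEP4 (YPL154C) stood at 695, 665 and 631 CPM in untreated wild type libraries and at 2971, 1919 and 2096 CPM with MMS. Deletion libraries had 734, 901 and 933 CPM without MMS and 3202, 3257 and 3334 CPM with it. All treated libraries lay above all untreated ones, and WT_MMS_1 was the highest of its group. PEP4 rose by 1.81 ± 0.15 in the wild type (SE, n = 3 per group, adjusted p = 1.76e-07), or 1.59 without WT_MMS_1, and by 1.93 ± 0.15 in the deletion strain (adjusted p = 6.83e-08).

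PRB1 (YEL060C), which acts next after proteinase A, started from a lower level. Its CPM were 67, 61.7 and 60.3 in untreated wild type libraries and 449, 334 and 367 with MMS. The deletion strain had 83.7, 98.2 and 92.8 CPM without MMS and 392, 438 and 419 CPM with it. The untreated deletion libraries thus lay above the untreated wild type libraries, while the treated libraries of the strains overlapped. The rise was 2.60 ± 0.11 in the wild type (adjusted p = 4.25e-10) and 2.18 ± 0.11 in the deletion strain (adjusted p = 7.51e-10).

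Among the exopeptidases, LAP4 (YKL103C) changed most. Aminopeptidase I reaches the vacuole from the cytosol rather than through the secretory pathway, by the cytoplasm-to-vacuole targeting (Cvt) route. LAP4 had 32.5, 33.6 and 28.9 CPM in untreated wild type libraries and 404, 379 and 418 CPM with MMS. The deletion strain had 53.9, 55.1 and 57.9 CPM without MMS and 715, 788 and 797 CPM with it. The 4 groups did not overlap anywhere, and the deletion strain was higher at both conditions. LAP4 rose by 3.66 ± 0.09 in the wild type, about 12.7-fold (adjusted p = 6.37e-12), and by 3.78 ± 0.09 in the deletion strain (adjusted p = 2.09e-12). In the order of all 6463 fold changes it was number 56 from the top in the wild type and 71 in the deletion strain.

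PRC1 (YMR297W), the carboxypeptidase Y gene, moved much as PEP4 did. It had 806, 758 and 745 CPM in untreated wild type libraries and 3411, 2075 and 2279 CPM with MMS. Deletion libraries stood at 749, 953 and 944 CPM and, with MMS, at 2815, 2832 and 2849 CPM. WT_MMS_1 was again the highest treated wild type library, above all treated deletion libraries. PRC1 rose by 1.75 ± 0.16 in the wild type (adjusted p = 5.76e-07), or 1.50 without WT_MMS_1, and by 1.68 ± 0.16 in the deletion strain (adjusted p = 5.99e-07).

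APE3 (YBR286W), for aminopeptidase Y, had the smallest rise that passed in both strains. It moved from 2263, 2222 and 2079 CPM to 4117, 3126 and 3180 CPM in the wild type. In the deletion strain it moved from 2024, 2242 and 2308 CPM to 3496, 3445 and 3499 CPM. The rise was 0.67 ± 0.11 in each strain, with adjusted p of 0.000105 in the wild type and 8.76e-05 in the deletion strain.

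CPS1 (YJL172W), the carboxypeptidase S gene, had a smaller MMS effect in the deletion strain than in the wild type, a difference whose test is given further on. It had 275, 252 and 251 CPM in untreated wild type libraries and 517, 391 and 428 CPM with MMS. Deletion libraries had 270, 309 and 310 CPM without MMS and 337, 352 and 350 CPM with it. The treated libraries lay above the untreated ones in both strains, by a narrow gap in the deletion strain. CPS1 rose by 0.78 ± 0.10 in the wild type (adjusted p = 1.18e-05) and did not pass in the deletion strain, at 0.22 ± 0.10 (adjusted p = 0.0546). That last value passed without WT_MMS_1 (0.23, adjusted p = 0.00625) or WT_MMS_2 (0.22, adjusted p = 0.0311), with no filter (0.23, adjusted p = 0.0477), among genes averaging log2 CPM 4 or more (0.29, adjusted p = 0.0136), in a fit of the compared groups alone (0.23, adjusted p = 0.00713) and with library-size scaling (0.79, adjusted p = 6.37e-08).

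TFS1 (YLR178C), the carboxypeptidase Y inhibitor gene, had the largest change of the 9. Its CPM were 27, 26.7 and 25.9 in untreated wild type libraries and 1754, 1022 and 1261 with MMS, with WT_MMS_1 the highest. In the deletion strain it went from 43.5, 55 and 50.7 CPM to 1904, 1755 and 1909 CPM. The rise of 5.66 ± 0.19 in the wild type (adjusted p = 5.49e-11, 5.42 without WT_MMS_1) was number 6 among all fold changes, and that of 5.22 ± 0.19 in the deletion strain (adjusted p = 4.06e-11) was number 14. YLR179C, the gene next to TFS1 and similar to it in sequence per the table's own annotation, fell instead. It dropped by 1.24 ± 0.08 in the wild type (adjusted p = 2.52e-08) and by 2.05 ± 0.09 in the deletion strain (adjusted p = 1.38e-10).

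PAI3 (YMR174C), the inhibitor gene for proteinase A, was scarce without treatment. Untreated wild type libraries held 55, 41 and 62 PAI3 counts, or 1.35, 1.20 and 1.62 CPM, and 12.2, 8.83 and 11.1 CPM with MMS. The deletion strain had 2.05, 1.91 and 1.73 CPM without MMS and 28.8, 25.4 and 28.4 CPM with it. Every treated deletion library was above every treated wild type library. PAI3 rose by 2.94 ± 0.16 in the wild type (adjusted p = 2.87e-09) and by 3.86 ± 0.16 in the deletion strain (adjusted p = 9.88e-11). DDR48, a stress gene that adjoins PAI3 on the chromosome, rose by 1.56 ± 0.13 and 1.84 ± 0.13. Whether the counting kept the strands of these neighbours apart is not given, and the part of DDR48 reads in the PAI3 counts was not tested.

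PBI2 (YNL015W), the inhibitor gene for proteinase B, responded least among the inhibitors. It had 9.36, 11 and 9.59 CPM in untreated wild type libraries and 11.4, 13.3 and 11.3 CPM with MMS. This change of 0.27 ± 0.18 did not pass (adjusted p = 0.213, 95% interval -0.09 to 0.63), although library-size scaling gave 0.59 (adjusted p = 0.042). In the deletion strain PBI2 had 19.7, 11.4 and 11.9 CPM without MMS, with hel2_1 well above its replicates, and 33.2, 27.1 and 30.9 CPM with MMS. There it rose by 1.08 ± 0.18 (adjusted p = 0.00012).

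**Figure D2:**
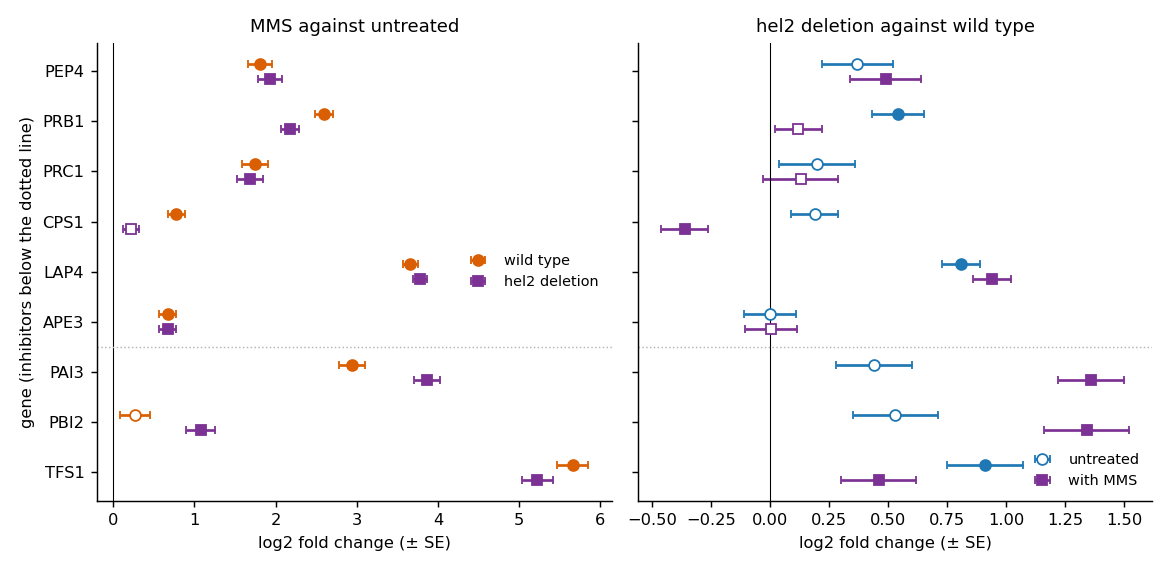
Log2 fold changes with SE for the 9 genes, for MMS in each strain (left) and for the deletion strain against the wild type in each condition (right); filled symbols passed and open ones did not. In both strains TFS1, LAP4 and PAI3 lie farthest to the right for MMS, and with MMS PAI3 and PBI2 lie farthest to the right between the strains, at 1.36 and 1.34.

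Between the strains without MMS, 3 of the 9 members passed and all 3 were higher in the deletion strain, where 5.25% of all genes passed as higher and 3.33% as lower, 8.57% in all. In all 554 genes passed, a number that depended on single libraries. It was 1163 without WT_MMS_1, 312, 305 and 319 without WT_1, WT_2 and WT_3, and 336 and 329 without hel2_1 and hel2_2, while DESeq2 gave 839. TFS1 was higher by 0.91 ± 0.16 (adjusted p = 0.00396), LAP4 by 0.81 ± 0.08 (adjusted p = 4.71e-05) and PRB1 by 0.54 ± 0.11 (adjusted p = 0.00721). For 6 of the 9 members, PEP4, PRB1, LAP4, PAI3, PBI2 and TFS1, the untreated groups did not overlap, as for 31.9% of all genes. The values of PEP4, PAI3 and PBI2 were 0.37 ± 0.15 (adjusted p = 0.152), 0.44 ± 0.16 (adjusted p = 0.12) and 0.53 ± 0.18 (adjusted p = 0.105). PEP4 passed without WT_MMS_1 (0.36, adjusted p = 0.0135), in a fit of the compared groups alone (0.37, adjusted p = 0.0303) and with library-size scaling (0.46, adjusted p = 0.00332). For PRC1 the difference was 0.20 (95% interval -0.11 to 0.51) and for CPS1 0.19 ± 0.10 (adjusted p = 0.266, or 0.29 with an adjusted p of 0.00651 under library-size scaling). The APE3 difference had a 95% interval of -0.21 to 0.21.

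With MMS, 5 members were higher in the deletion strain and 1 was lower, where 32% of all genes passed as higher and 29.8% as lower, 61.9% in all. The treated groups of the strains did not overlap for 6 members, all but PRB1, PRC1 and APE3, and for 68.3% of all genes. All 3 inhibitors were among the higher ones. PAI3 was higher by 1.36 ± 0.14 (adjusted p = 2.7e-06) and PBI2 by 1.34 ± 0.18 (adjusted p = 3.86e-05), numbers 200 and 212 from the top of all genes. TFS1 was higher by 0.46 ± 0.16 (adjusted p = 0.0204). This TFS1 call was lost without WT_MMS_2 (0.30, adjusted p = 0.0706), WT_MMS_3 (0.42, adjusted p = 0.0636), hel2_MMS_1 (0.45, adjusted p = 0.0527) or hel2_MMS_3 (0.44, adjusted p = 0.0545), and in a fit of the compared groups alone (0.46, adjusted p = 0.0709). Without WT_MMS_1 it was 0.70 (adjusted p = 4.71e-05).

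Of the proteases with MMS, LAP4 in deletion libraries exceeded the wild type by 0.94 ± 0.08 (adjusted p = 5.67e-07) and PEP4 by 0.49 ± 0.15 (adjusted p = 0.0108). CPS1 was lower by 0.36 ± 0.10 (adjusted p = 0.00651), at -0.24 without WT_MMS_1 (adjusted p = 0.0112), but at -0.0028 under library-size scaling (adjusted p = 0.968). PRB1 and PRC1 did not pass, at 0.12 ± 0.10 (adjusted p = 0.336) and 0.13 ± 0.16 (adjusted p = 0.494). Both passed as higher without WT_MMS_1, PRB1 at 0.25 (adjusted p = 0.0154) and PRC1 at 0.38 (adjusted p = 0.00511), and under library-size scaling, at 0.48 (adjusted p = 6.56e-05) and 0.51 (adjusted p = 0.000521). For APE3 the 95% interval was -0.21 to 0.21, and library-size scaling gave 0.36 (adjusted p = 3.65e-05).

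The MMS effect itself differed between the strains for 4 of the 9 members, 2 in each direction, where 40% of all genes passed. The difference is the signed log2 change in the deletion strain minus that in the wild type. It was positive for 18.6% of all genes and negative for 21.5%, among those that passed. The effect was larger in the deletion strain for PAI3 by 0.92 ± 0.21 (adjusted p = 0.00436) and for PBI2 by 0.81 ± 0.26 (adjusted p = 0.0238). It was smaller for CPS1, at -0.56 ± 0.14 (adjusted p = 0.00722), and for PRB1, at -0.42 ± 0.15 (adjusted p = 0.0382), or -0.28 without WT_MMS_1 (adjusted p = 0.0464). The inhibitor gene of proteinase B and the gene of proteinase B thus differed in opposite directions. The PRB1 call was lost among genes averaging log2 CPM 4 or more (adjusted p = 0.0534), with a replicate block (adjusted p = 0.0644), under library-size scaling (-0.16, adjusted p = 0.211) and without WT_2 (adjusted p = 0.0801), WT_3 (adjusted p = 0.0871), hel2_2 (adjusted p = 0.0933), hel2_3 (adjusted p = 0.0756), hel2_MMS_1 (adjusted p = 0.0901) or hel2_MMS_3 (adjusted p = 0.0678). The PBI2 call was lost without WT_2 (adjusted p = 0.0609), hel2_2 (adjusted p = 0.0588), hel2_3 (adjusted p = 0.0617) or hel2_MMS_1 (adjusted p = 0.0578).

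The other 5 members did not pass in this test. For LAP4 the difference of the effects was 0.12 (95% interval -0.09 to 0.34), for PEP4 0.12 (-0.28 to 0.52), for PRC1 -0.07 (-0.50 to 0.37) and for APE3 between -0.30 and 0.30. TFS1 stood at -0.44 ± 0.22 (adjusted p = 0.132), and passed without WT_MMS_2 at -0.60 (adjusted p = 0.0183). Under library-size scaling LAP4 (0.37, adjusted p = 0.0427), PEP4 (0.40, adjusted p = 0.0179) and APE3 (0.26, adjusted p = 0.00912) passed as larger in the deletion strain.

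To set each inhibitor against the protease it binds, the counts of the pair were divided within each library, which removes the scaling of libraries from the comparison. The 3 pairs moved in different ways with MMS. TFS1 gained on PRC1 in both strains, PAI3 gained on PEP4, and PBI2 lost ground to PRB1. Since gene lengths were not used, these ratios show how a pair changed between groups and not which transcript was more abundant.

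For each 100 PRC1 counts, untreated wild type libraries held 3.35, 3.52 and 3.48 TFS1 counts and treated ones 51.4, 49.3 and 55.3. The deletion strain had 5.81, 5.77 and 5.37 without MMS and 67.6, 62 and 67 with it. WT_MMS_1, high in both genes, did not stand out in their ratio. Averaged over the strains, the ratio was 13.2-fold higher with MMS, a log2 difference of 3.72 that all 6 treated libraries showed (exact permutation test within strains, two-sided, adjusted p = 0.005 over the 3 pairs). The smallest p that this test can give is 0.005. The ratio was also higher in the deletion strain, by 0.71 on the log2 scale without MMS and 0.33 with it, in 6 of 6 libraries (exact permutation test within conditions, two-sided, adjusted p = 0.015).

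Per 100 PEP4 counts, PAI3 had 0.195, 0.180 and 0.256 counts in untreated wild type libraries, and 0.412, 0.460 and 0.531 in treated ones. Deletion libraries held 0.279, 0.212 and 0.185 counts untreated and 0.898, 0.781 and 0.852 treated. The untreated groups of the strains overlapped and the treated groups did not. With MMS this ratio was higher by 1.16 on the log2 scale in the wild type and by 1.92 in the deletion strain. All 6 treated libraries showed this (exact permutation test, two-sided, adjusted p = 0.005). The strain difference averaged 0.48, with 0.10 in untreated and 0.86 in treated libraries (exact permutation test, two-sided, adjusted p = 0.045). Of 6 deletion libraries 4 lay above all wild type libraries of their condition, and the unadjusted p of 0.03 became 0.0938 when libraries of the same number were paired (exact permutation test that swaps the strains within pairs). It was also no longer under 0.05 without WT_1 (p = 0.055), WT_2 (p = 0.065), WT_MMS_1 (p = 0.05), hel2_1 (p = 0.065), hel2_MMS_1 (p = 0.055), hel2_MMS_2 (p = 0.05) or hel2_MMS_3 (p = 0.055), each an exact permutation test.

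PBI2 ran the other way. Per 100 PRB1 counts it had 14, 17.8 and 15.9 in untreated wild type libraries, and 2.55, 3.98 and 3.08 in treated ones. The deletion strain had 23.6, 11.6 and 12.9 without MMS, with hel2_1 the highest, and 8.47, 6.18 and 7.38 with MMS. All treated libraries lay below all untreated ones. The ratio was 5.02-fold lower with MMS in the wild type and 2.09-fold lower in the deletion strain, a mean log2 difference of -1.70 (exact permutation test, two-sided, adjusted p = 0.005, 6 of 6 libraries). The difference between those folds was not tested. Between the strains the untreated groups overlapped, while all treated deletion libraries lay above all treated wild type libraries. The strain difference averaged over both conditions did not pass, with log2 values of -0.06 without MMS and 1.21 with it (exact permutation test, two-sided, adjusted p = 0.075). Without hel2_2 its unadjusted p was 0.04 by the exact permutation test.

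**Figure D3:**
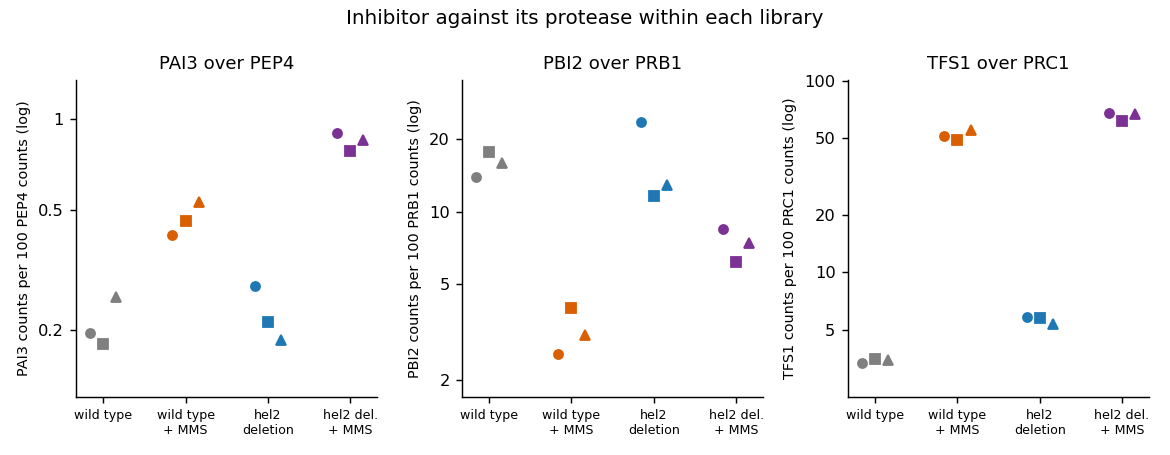
Counts of each inhibitor per 100 counts of its protease on a log scale, by library and group; circles, squares and triangles are replicates 1, 2 and 3. TFS1 over PRC1 moves from 3.35 to 3.52 up to 49.3 to 55.3 in the wild type, while PBI2 over PRB1 moves from 14 to 17.8 down to 2.55 to 3.98.

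Relatives of the proteases differed among themselves. ATG42 (YBR139W), a putative vacuolar serine carboxypeptidase, rose by 2.36 ± 0.16 in the wild type (adjusted p = 1.98e-08) and by 2.37 ± 0.16 in the deletion strain (adjusted p = 1.17e-08). It was the highest in WT_MMS_1, at 424 CPM against 250 and 288 in its replicates. YSP3, the paralog of PRB1, rose by 0.99 ± 0.09 and 1.32 ± 0.09. RRT12, a subtilisin-family gene with a role in the spore wall, did not pass, at 0.28 ± 0.12 (adjusted p = 0.0512) and -0.08 ± 0.12 (adjusted p = 0.54). The zinc carboxypeptidase-like gene ECM14 fell by 0.15 ± 0.06 in the wild type (adjusted p = 0.045), a call lost in 12 of the alternatives and turned around under library-size scaling, where it passed as higher by 0.16 (adjusted p = 0.0431).

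Over the 12 libraries, the log2 CPM of the members went together except for PBI2 and CPS1. Of the 36 pairs of members, 21 had a Pearson r over 0.9, and the other 15 all held PBI2 or CPS1. The median over all 36 pairs was 0.958, and the highest r was 0.998, between TFS1 and PRB1. PBI2 ran from 0.133 with CPS1 to 0.748 with PAI3, and CPS1 with the 7 remaining members from 0.686 with PAI3 to 0.869 with APE3. Since all these points share the contrast of treated with untreated libraries, the values are given without a test. Among 3983 named genes averaging log2 CPM 4 or more, the genes most like PRB1 were SYP1, SDS24 and GAD1, at 0.998 to 0.999. SDS24, YSC84 and GAD1 were the most like TFS1, each at 0.999. Most like PAI3 were OM45, NTH2 and SSA4, the last a stress-induced Hsp70 gene, at 0.997 to 0.998. Most like PBI2 were AIM37, NYV1 and MTC1, at 0.967 to 0.980, of which NYV1 encodes a SNARE of vacuole fusion.

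The machinery around the proteases was described by 5 further lists. Of 12 other vacuolar hydrolases, 10 rose and 2 fell in each strain, with medians of 1.38 in the wild type and 1.14 in the deletion strain. Of all genes, 35.6% rose and 34.2% fell in the wild type, and 39.2% and 36.2% in the deletion strain. SGA1, a glucoamylase gene, rose by 2.90 ± 0.16 and 3.14 ± 0.15, and RNY1, the gene of a vacuolar RNase, by 2.48 ± 0.14 and 3.74 ± 0.14. AMS1, for the vacuolar alpha-mannosidase, rose by 2.57 ± 0.09 in the deletion strain. The members that fell, named after their values were seen, were the polyphosphatase gene PPN2, by 1.14 and 1.15, and the vacuolar membrane protease gene YBR074W, by 0.31 and 1.02. Under library-size scaling YBR074W stood at -0.01 in the wild type (adjusted p = 0.887). In the difference of the MMS effects RNY1 was at 1.27 ± 0.19 (adjusted p = 0.00026), AMS1 at 0.48 ± 0.12 (adjusted p = 0.00771) and YBR074W at -0.71 ± 0.12 (adjusted p = 0.000577).

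Of 9 genes of the Cvt route, 6 rose and 1 fell in the wild type, with a median of 0.70, beside 35.6% of all genes that rose. In the deletion strain 8 rose and 1 fell, with a median of 1.79, beside 39.2% of all genes that rose. ATG19, the receptor that carries aminopeptidase I, rose by 1.65 ± 0.11 and 2.05 ± 0.11, and its paralog ATG34 by 2.64 ± 0.13 and 2.82 ± 0.13. The effect was larger in the deletion strain for ATG11, a scaffold of selective autophagy, by 1.10 ± 0.13 (adjusted p = 4.71e-05), for the phosphoinositide-binding ATG21 by 1.09 ± 0.13 (adjusted p = 4.6e-05) and for the sorting nexin ATG20 by 1.13 ± 0.33 (adjusted p = 0.0148). The gene that fell, ATG27, named after its value was seen, stood at -0.25 and -0.53, or 0.05 and 0.03 under library-size scaling. Its wild type call was lost without WT_1 (adjusted p = 0.0596), WT_MMS_2 (adjusted p = 0.0593) or WT_MMS_3 (adjusted p = 0.0706).

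Another list held 25 genes that sort proteins to the vacuole by the secretory route. Of these, 11 rose and 2 fell in the wild type, with a median of 0.17, beside 35.6% of all genes that rose. In the deletion strain 19 rose and 1 fell, with a median of 0.53, beside 39.2% of all genes. Without WT_MMS_1 the counts were 15 and 2 in the wild type and 19 and 3 in the deletion strain. With RLE scaling they were 11 and 2 in the wild type and 19 and 3 in the deletion strain. Under library-size scaling they were 17 and 1 in the wild type and 25 and 0 in the deletion strain. PEP12, the syntaxin of the prevacuolar compartment, rose by 1.92 ± 0.11 in the deletion strain, and its MMS effect was larger there by 1.27 ± 0.15 (adjusted p = 4.97e-05). VPS27, of endosomal sorting, rose by 0.67 ± 0.13 and 1.73 ± 0.13, with a difference of 1.06 ± 0.18 (adjusted p = 0.000585). The syntaxin gene VAM3 fell by 0.74 ± 0.10 in the wild type. YPT7, a Rab GTPase gene of vacuole fusion that was named after its values were seen, fell by 0.37 and 0.22, but stood at -0.05 and 0.33 under library-size scaling. Its deletion strain call was also lost with a replicate block (adjusted p = 0.0601), among genes averaging log2 CPM 4 or more (adjusted p = 0.127) and without any single library of hel2_1, hel2_3, hel2_MMS_1, hel2_MMS_2 or hel2_MMS_3.

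Genes of the proton pump that acidifies the vacuole went the other way under TMM. Of 19 V-ATPase genes, 11 fell and 1 rose in the wild type, and 12 fell and none rose in the deletion strain, with medians of -0.32 and -0.59. Of all genes, 34.2% fell and 35.6% rose in the wild type, and 36.2% and 39.2% in the deletion strain. Under library-size scaling 8 fell and 6 rose, and 5 fell and 6 rose, with medians of -0.01 and -0.04. VMA7, a peripheral subunit gene, fell by 1.32 ± 0.17 and 1.21 ± 0.17. The gene that rose in the wild type, by 0.60 (adjusted p = 9.28e-05), was STV1, the subunit isoform of the Golgi and endosomes, named after its value was seen. VMA10 fell by 1.93 ± 0.22 in the wild type, and its MMS effect differed by 1.03 ± 0.31 (adjusted p = 0.0178), a call lost without WT_MMS_1 (0.84, adjusted p = 0.0547).

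Transporters move amino acids, the end products of the proteases, across the vacuolar membrane. Of 9 such genes, 7 rose in each strain, and in the deletion strain 1 fell, with medians of 0.89 and 0.45. The shares of all genes that rose were 35.6% in the wild type and 39.2% in the deletion strain. ATG22, for amino acid efflux from the vacuole, rose by 2.10 ± 0.17 and 1.69 ± 0.17, and AVT6, an exporter of acidic amino acids, by 2.01 ± 0.15 and 1.41 ± 0.15. The gene that fell in the deletion strain was VBA1, a permease of basic amino acids, by 1.11 ± 0.16, with a difference of the MMS effects of -0.92 ± 0.22 (adjusted p = 0.00588). AVT1, an importer of neutral amino acids, had a smaller effect in the deletion strain by -0.74 ± 0.18 (adjusted p = 0.00633), and AVT7 by -0.63 ± 0.14 (adjusted p = 0.00399).

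**Figure D4:**
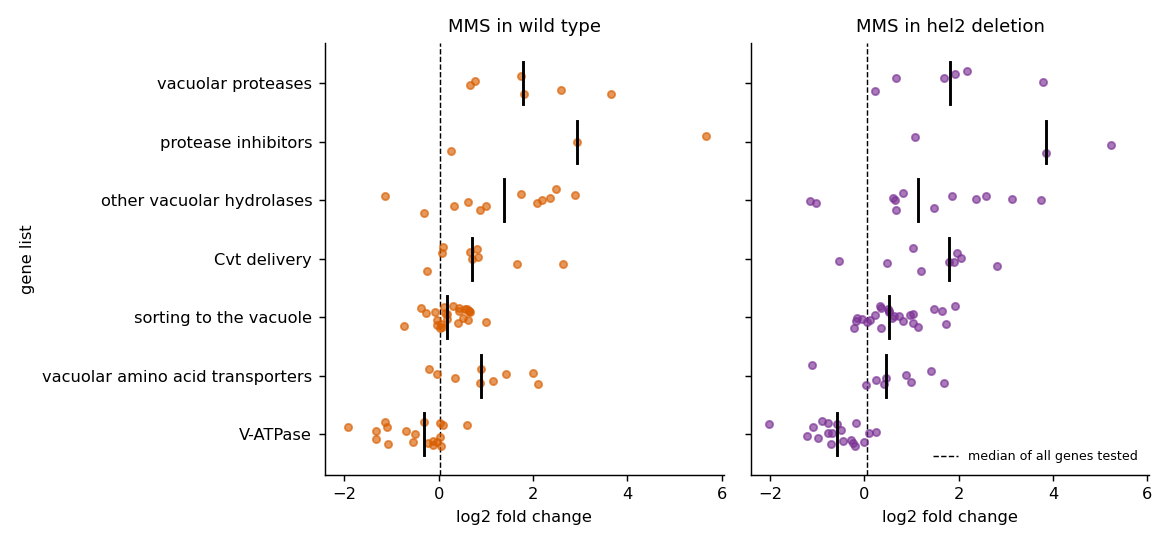
Log2 fold changes with MMS for each gene of the 7 lists, in the wild type (left) and the deletion strain (right); thick bars are list medians and the dashed line is the median of all genes tested. The protease median lies at 1.78 and 1.81, and the V-ATPase median at -0.32 and -0.59.

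The comparisons depend on how libraries are scaled. In the wild type 69.9% of the genes tested passed in either direction, and 75.4% in the deletion strain. With library-size scaling in place of TMM, the median of all genes moved to 0.33 for MMS in the wild type, 0.61 in the deletion strain, 0.11 and 0.37 for the strains without and with MMS, and 0.23 for the difference of the effects. The share of passing genes that were higher moved from 51 to 69.3% and from 52 to 74.4% for MMS, from 61.2 to 85.4% and from 51.8 to 76.2% between the strains, and from 46.4 to 66.6% for the difference. Under that scaling all 9 members passed as higher with MMS in each strain.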

How the data were processed

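Read counts per gene were used as the authors deposited them, in 1 table for all 12 libraries. STAR 2.5.1a, Subread, featureCounts 1.4.6-p5 and Salmon appear with no role given, per the submitters' processing notes. No build, strand setting or rule for multi-mapped reads is given in the sources used here. The table had 7230 lines, where 97 identifiers were repeated with the same values. Each was taken 1 time. RefSeq names (assembly R64) matched 6042 identifiers and served for symbols and for neighbouring genes. Between replicates, chi-square over its degrees of freedom was at least 63.6, so no 2 libraries agreed within counting noise.

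Counts were scaled by TMM, filtered with filterByExpr and put through the quasi-likelihood test of edgeR 4.0.16 in R 4.3.3, all 12 libraries in 1 fit. The script was run on simulated data with few changed genes, as many raised as lowered. That setting does not test the choice of scaling. Deviations of same-numbered WT and WT_MMS libraries correlated at 0.39, 0.18 and 0.19, each over 0.1. The other 15 same-numbered pairs ran from -0.62 to 0.09. Libraries of unlike number were not compared, so these values cannot show whether the libraries were paired. The block for wild type libraries alone was added after seeing the data. Inhibitor ratios were tested by exact permutation within strata. They had been planned per kilobase, but use counts, since gene lengths of the files' build were not used here. The planned promoter search was not run. Alternatives were RLE and library-size scaling, DESeq2 1.42.0, limma-voom 3.58.1, other filters, a replicate block and leaving out each library.

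The members and lists were chosen with earlier results of these data known. Named genes were all members, 5 relatives, up to 3 passing genes with the largest change per other list and comparison, and the 3 genes most like PRB1 and each inhibitor by Pearson r over log2 of CPM plus 0.5.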

Additional observations from a re-analysis of the deposited data

Results flagged for a closer look

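The MMS effect differed between the strains, by the interaction test of edgeR with an adjusted p under 0.05 over all genes, for 40% of all genes. Values follow for the 4 members that passed, for YLR179C and for the 3 passing genes with the largest difference of each other list, a number that the naming rule sets. Each value is the signed log2 change in the deletion strain minus that in the wild type. For genes that fell with MMS, a positive value means a weaker fall in the deletion strain and a negative one a stronger fall. Among the members the differences were 0.92 for PAI3, 0.81 for PBI2, -0.42 for PRB1 and -0.56 for CPS1. The PRB1 call was lost in 6 of the 12 fits that left out a library, and the PBI2 call in 4.

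YLR179C, the neighbour and relative of TFS1, had -0.81. Among the other hydrolases RNY1 had 1.27, AMS1 0.48 and YBR074W -0.71. In the Cvt route ATG20 had 1.13, ATG11 1.10 and ATG21 1.09. Of the sorting genes PEP12 had 1.27, VPS27 1.06 and VPS17, a retromer subunit gene, 0.91.

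The V-ATPase genes went both ways. VMA22, an assembly factor gene, had 1.16 and VMA10 1.03, while VMA9 had -0.92, a call lost under library-size scaling (-0.67, adjusted p = 0.0655 in edgeR). The VMA9 call was also lost without WT_1 (adjusted p = 0.0536), WT_3 (adjusted p = 0.0527), hel2_MMS_3 (adjusted p = 0.0597), hel2_3 (adjusted p = 0.0586) or hel2_MMS_2 (adjusted p = 0.0544). Of the transporter genes VBA1 had -0.92, AVT1 -0.74 and AVT7 -0.63. No cause of these differences was tested.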

How the results depend on the processing

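Of the values of single members under all alternatives, 830 kept their direction and side of the threshold, 19 lost their call, 20 gained one and 26 changed sign; the cause of those changes was not tested. These sign changes of members were in values that had not passed. APE3 between the untreated strains stood at -0.02 with RLE scaling and DESeq2 and at -0.01 among genes averaging log2 CPM 4 or more. With MMS it stood at -0.06 with RLE scaling and DESeq2 and at -0.0036 with only the libraries compared, and its difference of effects at -0.04 with RLE scaling and DESeq2. With library-size scaling PRC1 stood at 0.22 for the difference of effects, and ECM14 at 0.16, ATG27 at 0.05 and 0.03 and YPT7 at 0.33 for MMS. Leaving out each library in turn gave APE3 -0.04 to 0.06 without MMS, -0.07 to 0.14 with it and -0.07 to 0.15 for the difference of effects. PRC1 ran from -0.01 to 0.38 between the treated strains and from -0.20 to 0.19 for the difference, where PEP4 ran from -0.00087 to 0.34. The strain difference of the ratio ran from 0.39 to 0.55 for PAI3 over PEP4 and from 0.42 to 0.67 for PBI2 over PRB1. Between the untreated strains 305 to 1163 genes passed, and 2 to 5 members in the difference of effects. For the untreated strains 5 members passed with library-size scaling and DESeq2 called 839 genes, and for the difference of effects 2 members passed among genes averaging log2 CPM 4 or more.

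With a replicate block 4392 and 4799 genes passed for MMS in the wild type and the deletion strain, 402 and 3836 between the strains without and with MMS, and 2378 for the difference. For the wild type libraries alone the block gave 4474 genes and the same number of members, 8. In the ratio of PAI3 to PEP4 the paired strain difference was 0.48 (exact permutation p = 0.0938). Among the members the block ended the PRB1 difference of effects and no other call. PAI3, with 41 to 62 counts in the untreated wild type, is the member whose level depth limits most.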

Other observations

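Without MMS, the Cvt receptor gene ATG19 and its paralog ATG34 were higher in the deletion strain, as was LAP4, the cargo gene of ATG19. ATG19 was higher by 0.67 ± 0.11 (adjusted p = 0.00212 in edgeR) and ATG34 by 0.78 ± 0.13 (adjusted p = 0.00279). AMS1, whose product is another cargo of that route, was higher by 0.47 ± 0.09 (adjusted p = 0.00566). Of the 12 other hydrolases, AMS1 among them, 4 passed as higher. The 8 that did not pass included the aminopeptidase gene APE4, at 0.02 (adjusted p = 0.925). Of the 9 Cvt genes, 3 passed as higher, and the third, ATG23, at 0.61 (adjusted p = 0.0248), was lost under library-size scaling (adjusted p = 0.053) and without WT_1, WT_2, WT_3, hel2_1 or hel2_2. For comparison, 5.25% of all genes passed as higher between the untreated strains, and 8.57% in either direction.

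With MMS, 8 of the 9 Cvt genes were higher in the deletion strain and 1, ATG27, was lower, with a median of 1.05 against 0.03 for all genes. Of all genes, 32% passed as higher and 29.8% as lower. ATG20 was higher by 1.73 ± 0.23 (adjusted p = 2.99e-05) and ATG21 by 1.18 ± 0.09 (adjusted p = 3.1e-07). RNY1, of the other hydrolases, was higher by 1.76 ± 0.13 (adjusted p = 1.96e-07) and the sorting gene PEP12 by 1.54 ± 0.11 (adjusted p = 1.4e-07). Of the 12 other hydrolases 5 were higher and 1 lower, of the 25 sorting genes 19 and 1, and of the 19 V-ATPase genes 3 and 12. Under library-size scaling these counts were 11 and 1, 22 and 0, and 5 and 5. Of the 9 transporter genes 4 were lower and none higher, beside 29.8% and 32% of all genes. VBA1 stood at -1.05 ± 0.16 (adjusted p = 9.42e-05) and AVT1 at -0.82 ± 0.13 (adjusted p = 0.000128). Under library-size scaling 2 transporter genes were higher and 2 lower.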
